A study of Rattus norvegicus with 6 samples.

Results

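Signalling by the interleukin-6 (IL-6) family of cytokines was examined through 9 genes, the ligands Lif, Cntf, Il6 and Clcf1, the receptor chains Il6st, Lifr and Osmr, the transcription factor Stat3 and its inhibitor Socs3. The genes were chosen by name, and all 9 were listed among the 29468 gene symbols of the expression tables, 20494 of them above 0 somewhere in the series. All rats were wild-type LEWIS rats, an inbred strain. Schwann cell precursors (SCPs), the embryonic forerunners of Schwann cells (SCs), were taken from the sciatic nerves and brachial plexus of untreated embryos at embryonic day 14. Repair Schwann cells (RSCs), the cells that SCs become in an injured nerve, were taken from the sciatic nerve beyond the cut of rats aged 10 weeks, 1 week after the nerve cut. Each group had 3 samples, whose values are listed in the order of replicates 1, 2 and 3, and RNA was taken after enzymatic dissociation, which was longer and used more collagenase for RSCs. The comparison asks how gene expression differs between SCs of the injured adult nerve and their embryonic precursors. Age, injury, digestion and the nerves sampled differ together between the groups and cannot be told apart.

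Cytokines of the IL-6 family signal through shared receptor chains that carry the signal into the cell. The protein encoded by Il6st, gp130, pairs with the LIF receptor for LIF and for CNTF and cardiotrophin-like cytokine, with the oncostatin M receptor for oncostatin M, and with itself for IL-6, while the IL-6 and CNTF receptors add a chain that binds the ligand. The paired chains activate Janus kinases, which phosphorylate STAT3, and STAT3 induces SOCS3, which binds gp130 and shuts the signal off. In peripheral nerve these cytokines are known as injury factors that act on neurons, on SCs and on immune cells.

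Expression is given as FPKM, the fragments mapped to a transcript, scaled by its length and by the size of the library. Values of the named transcripts were summed for each gene. Cufflinks also assembled transcripts without a gene name in each sample, and these held 18.6% to 31.9% of all FPKM, so each gene is also given with the unnamed transcripts of its own locus added. FPKM is scaled to transcript length, so levels of different genes can be set side by side. Differences are on the scale of log2(FPKM + 1), RSC minus SCP, with a standard error (SE) and a Benjamini-Hochberg adjusted p-value from limma over the 13003 genes whose mean reached 1 FPKM. A gene was called at an unadjusted p under 0.01, the p-value part of the study's threshold, which also asks for a log2 fold change over 2. The added 1 shrinks differences of genes near 0. Over all tested genes the median difference was -0.17 as deposited and 0.02 with median-of-ratios scaling, which took the share of called genes that were higher in RSCs from 44.6% to 56.1%. A 0 in these tables can be a failed estimate, so such genes are described as listed at 0, with the value of every sample.

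The SC marker Sox10 was listed at 175 to 181 FPKM in SCPs and at 143 to 149 FPKM in RSCs. Ngfr, a receptor of SCPs and RSCs, was at 173 FPKM or more in every sample. Of a list of 12 leukocyte markers, 9 were tested and all 9 were higher in RSCs. Their list had a summed level of 13.5 to 40.7 FPKM in SCPs and 2233 to 2682 FPKM in RSCs. Cd3e and S100a8 were listed at 0 in all SCP samples and were not tested with named transcripts. In RSCs Cd3e was at 2.93, 1.25 and 1.71 FPKM and S100a8 was listed at 0, 0.745 and 3.89 FPKM. The summed level of 6 fibroblast markers was 641 to 1020 FPKM in SCPs and 5360 to 8011 FPKM in RSCs, and 5 of the 6 were higher in RSCs. The summed level of 8 early response genes that tissue dissociation can induce was 755 to 844 FPKM in SCPs and 2147 to 2913 FPKM in RSCs. Of these 8, 6 were higher in RSCs, and all 8 with unnamed transcripts added, with 18.1% and 23.2% over all tested genes. Markers of red blood cells, muscle and neurons went the other way, with 3 of 4, 3 of 4 and 2 of 4 tested genes higher in SCPs and none higher in RSCs. The summed level of red blood cell markers was 11823 to 60797 FPKM in SCPs and 1867 to 2474 FPKM in RSCs. For muscle markers it was 52.5 to 186 and 3.03 to 13.4 FPKM, and for neuron markers 26.3 to 48.5 and 17.5 to 23.9 FPKM. Of 5 endothelial markers none was called. The study's methods include a step in which fibroblasts and macrophages were left to attach to uncoated plastic and the cells still afloat were used. The part of these other cell types, and of dissociation, in the results below was not tested.

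Of the 9 genes, 8 were called higher in RSCs and 0 higher in SCPs, while 18.1% of all tested genes were called higher in RSCs and 22.4% higher in SCPs. The exception was Lifr. The values of the groups did not overlap in those 8 genes, which was true of 58.6% of all tested genes. A fitted difference over 2 in addition was found for 6 genes, Lif, Cntf, Il6, Clcf1, Osmr and Socs3, and below -2 for 0, while 7.81% and 3.78% of all tested genes passed these limits. Lif, Il6 and Osmr had a mean under 1 FPKM in SCPs and entered the test through their RSC values, so they had to differ, and for Cntf only SCP replicate 2 was above 0 among the SCPs. Clcf1, Il6st, Stat3 and Socs3 had a mean over 1 FPKM in SCPs with every sample above 0, and were higher in RSCs. With the unnamed transcripts added, 7 of the 9 were called higher in RSCs, Lifr was called higher in SCPs and Cntf was not called, while 23.2% and 34.2% of 14019 tested genes were called higher in RSCs and in SCPs. The groups then lay apart in all 9 genes and in 72.4% of all tested genes. In bulk samples, fewer cells of a type and less RNA per cell cannot be told apart.

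**Figure D1:**
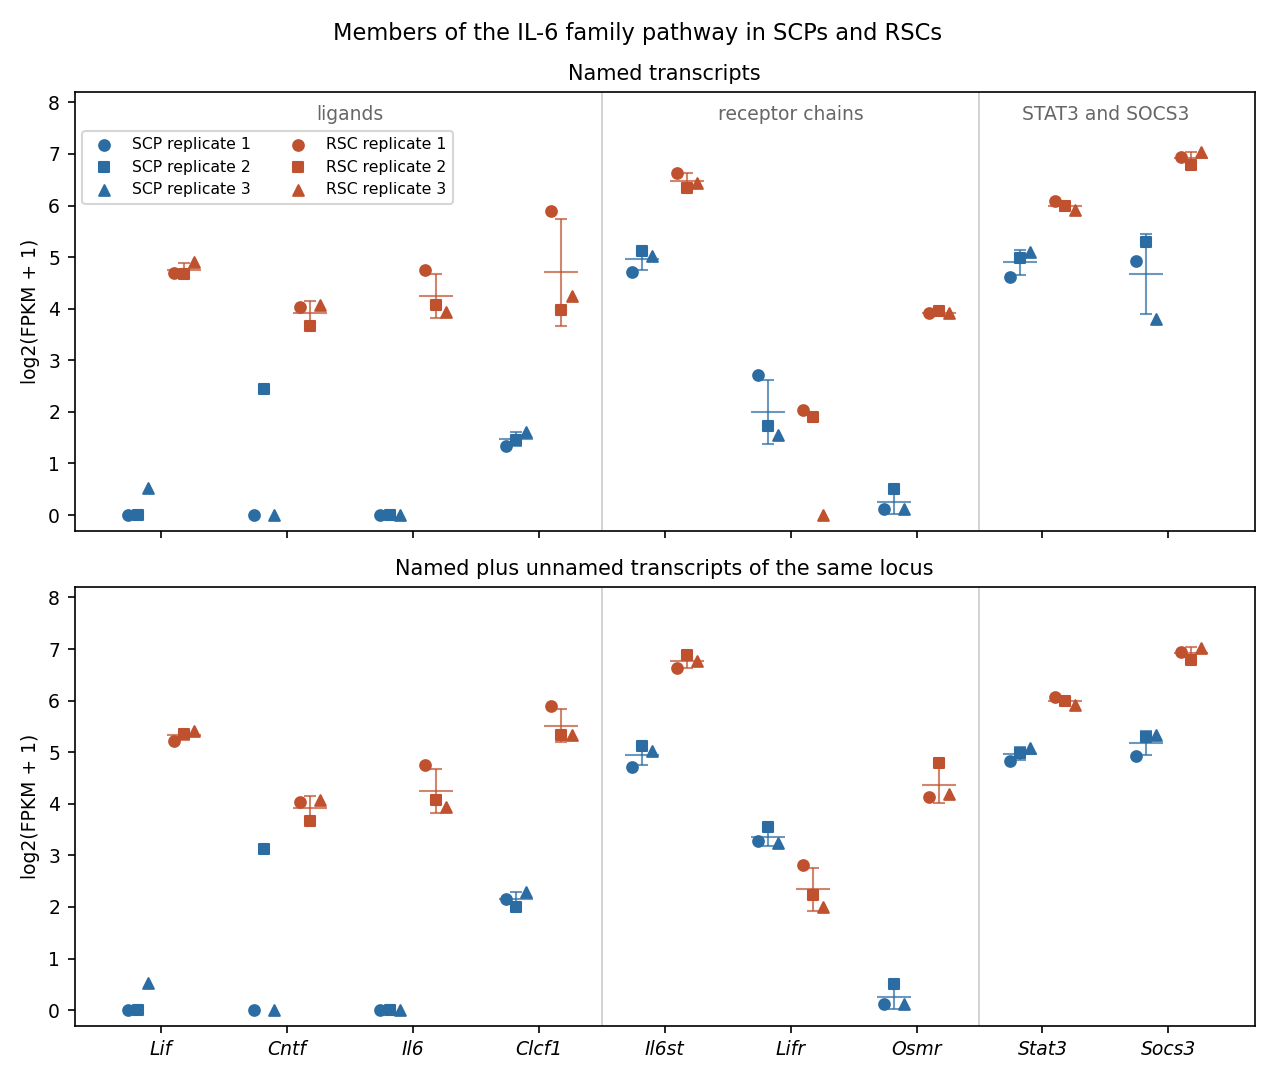
The level of each gene in each sample on the log2(FPKM + 1) scale, from named transcripts (top) and with the unnamed transcripts of the locus added (bottom). Points are samples, and bars are the mean and SD of 3 samples, drawn only where no sample was listed at 0. All RSC points lie above all SCP points in 8 genes, and Lifr is the exception, with overlapping groups on top and RSC points below SCP points at the bottom.

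The sequences shown are those of the reference genome before the start of transcription that RefSeq annotates. They are given for the genes whose difference exceeded 2 on the log2 scale and for which RefSeq's table held a window. These were Cntf, Il6, Osmr and Socs3, and Lif and Clcf1 had none. The windows hold the 250 bases before the start on GRCr8, read 5′ to 3′ on the gene's strand, and capitals mark the motifs found.
Cntf, chr1:219314536-219314785, minus strand: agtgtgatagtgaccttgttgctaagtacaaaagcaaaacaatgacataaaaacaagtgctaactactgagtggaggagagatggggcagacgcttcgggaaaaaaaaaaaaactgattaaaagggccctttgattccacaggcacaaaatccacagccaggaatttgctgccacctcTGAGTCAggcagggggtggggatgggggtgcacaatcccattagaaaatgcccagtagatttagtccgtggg
Il6, chr4:5894576-5894825, minus strand: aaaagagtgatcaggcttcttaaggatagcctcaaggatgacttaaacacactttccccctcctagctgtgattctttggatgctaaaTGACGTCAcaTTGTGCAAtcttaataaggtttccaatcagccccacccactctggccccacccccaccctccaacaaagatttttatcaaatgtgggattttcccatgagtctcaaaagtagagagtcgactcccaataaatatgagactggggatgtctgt
Osmr, chr2:57688562-57688811, minus strand: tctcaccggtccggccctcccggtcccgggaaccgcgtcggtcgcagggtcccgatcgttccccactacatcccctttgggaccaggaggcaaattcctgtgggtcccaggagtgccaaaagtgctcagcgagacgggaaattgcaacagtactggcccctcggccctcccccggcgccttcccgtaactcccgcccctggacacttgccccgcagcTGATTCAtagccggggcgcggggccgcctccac
Socs3, chr10:103694769-103695018, minus strand: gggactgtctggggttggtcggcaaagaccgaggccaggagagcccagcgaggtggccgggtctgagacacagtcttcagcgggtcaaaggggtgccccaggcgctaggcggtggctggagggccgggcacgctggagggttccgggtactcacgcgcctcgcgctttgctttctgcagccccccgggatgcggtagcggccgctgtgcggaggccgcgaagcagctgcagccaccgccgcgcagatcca

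The windows of the 7 genes that had one (those 4, Il6st, Lifr and Stat3) were searched on both strands for 4 motifs. The STAT motif TTCNNNGAA was in 0 of the 7 windows and in 7.67% of all 33469 windows in the table. The AP-1 motif TGANTCA was in the windows of Cntf, as TGAGTCA at 72 to 66 bases before the start, and of Osmr, as TGATTCA at 33 to 27 bases before the start, and in 6.34% of all windows. Il6 held a CRE motif, TGACGTCA, at 162 to 155 bases and a C/EBP motif, TTGTGCAA, at 152 to 145 bases before the start. CRE was in 1.59% of all windows, and C/EBP, searched as TTNNGCAA and TTGCNNAA, was in 9.22%. None of these motifs overlapped another. Il6st, Lifr, Stat3 and Socs3 held none of the 4 in this window. A match is a description of the letters and not a binding site. Whether the transcripts in these samples begin at the annotated starts was not tested.

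Among the ligands, Lif and Il6 were at or near 0 in SCPs and were expressed in all RSC samples. Lif encodes leukaemia inhibitory factor, a cytokine released in injured nerve, and lies on chromosome 14 from 84492909 to 84500550 of rn6. Lif was listed at 0, 0 and 0.445 FPKM in SCPs and at 24.7, 24.6 and 28.8 FPKM in RSCs. The 3 RSC values were close to each other and far above the single SCP value over 0, with a fitted difference of 4.58 (SE 0.22). Most of the named Lif signal in RSCs came from a transcript of 609 bases that Cufflinks marked as having low data. In all 3 RSC samples, Cufflinks also assembled unnamed transcripts at Lif that ran 1693 to 1732 bases beyond the end of the named gene. With these added, Lif stood at 36.4, 40.0 and 41.6 FPKM in RSCs, and the difference was 5.16.

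Il6 encodes IL-6, an inflammatory cytokine made by macrophages, fibroblasts and SCs, and lies on chromosome 4 from 3043231 to 3047807. Il6 was listed at 0 in all 3 SCP samples and at 25.8, 15.8 and 14.3 FPKM in RSCs. No fold change is given against values of 0. No unnamed transcript was assigned to Il6 in any sample.

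Clcf1 was low but above 0 in every SCP sample. Clcf1 encodes cardiotrophin-like cytokine, which binds the CNTF receptor, and lies on chromosome 1 from 219468866 to 219472445. Its level was 1.54, 1.76 and 2.05 FPKM in SCPs and 58.4, 14.7 and 18.0 FPKM in RSCs. The ratio of mean FPKM was 17.0, and the difference was 3.23 (SE 0.51, adjusted p = 0.0035 by limma). RSC replicate 1 was far above the other RSC samples, but the unnamed transcripts held 62.4% and 53.9% of the Clcf1 signal in RSC replicates 2 and 3 and 0% in RSC replicate 1. With them added, Clcf1 stood at 58.4, 39.2 and 39.1 FPKM in RSCs and 3.47, 2.98 and 3.87 FPKM in SCPs, and the difference was 3.37 (SE 0.18).

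Cntf was the least certain of the ligands. Cntf encodes ciliary neurotrophic factor, which myelinating SCs are known to store, and lies on chromosome 1 from 229599009 to 229601032. Cntf was listed at 0, 4.44 and 0 FPKM in SCPs and at 15.3, 11.7 and 15.8 FPKM in RSCs. All RSC values were above the single SCP value over 0, with a difference of 3.11 (95% interval 1.40 to 4.82, adjusted p = 0.013 by limma). With the unnamed transcripts added, SCP replicate 2 rose to 7.75 FPKM, and Cntf was no longer called, with a difference of 2.88 and an unadjusted p of 0.012. The call was also lost on leaving out any 1 sample other than SCP replicate 2, with unadjusted p-values of 0.014 to 0.018 by limma. In SCP replicates 1 and 3, where Cntf was listed at 0, Cufflinks placed it in 1 locus with its neighbour Zfp91, and the part of this in the values of 0 was not tested.

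Of the receptor chains, Il6st and Osmr were higher in RSCs and Lifr was not. Il6st lies on chromosome 2 from 44279206 to 44319427. Its level was 25.4, 33.8 and 31.5 FPKM in SCPs and 98.6, 80.2 and 86.0 FPKM in RSCs. The 3 samples of each group lay close together, and the means were 30.2 ± 4.35 and 88.2 ± 9.39 FPKM (SD, n = 3 each), a ratio of 2.92. The difference was 1.52 (SE 0.14, adjusted p = 4.3e-04 by limma), and 1.81 with the unnamed transcripts, which were found in RSC replicates 2 and 3.

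Osmr, the oncostatin M receptor chain, lies on chromosome 2 from 56107491 to 56162950. Osmr was nearly silent in SCPs, at 0.0860, 0.413 and 0.0906 FPKM, and stood at 14.1, 14.4 and 14.0 FPKM in RSCs. Its RSC values had the smallest spread of the 9 genes, 14.2 ± 0.211 FPKM (SD, n = 3). Cufflinks marked the 2 named Osmr transcripts behind these sums as having low data in every RSC sample. The fitted difference was 3.68 (SE 0.20). With the unnamed transcripts the RSC values were 16.6, 26.6 and 17.3 FPKM (SD 5.59), and the difference was 4.12.

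Lifr, the chain that LIF and CNTF need, lies on chromosome 2 from 56424918 to 56489346. Its named transcripts were listed at 5.56, 2.30 and 1.95 FPKM in SCPs and at 3.11, 2.72 and 0 FPKM in RSCs. The groups overlapped, and the difference of -0.69 had a 95% interval of -2.27 to 0.89 (adjusted p = 0.42 by limma). Unnamed transcripts held much of the Lifr signal in every sample, from 26.5% in RSC replicate 2 to 78.6% in SCP replicate 2 and all of it in RSC replicate 3. With them added, Lifr was listed at 8.73, 10.8 and 8.49 FPKM in SCPs and at 5.99, 3.70 and 2.98 FPKM in RSCs. All SCP values were then above all RSC values, and the difference was -1.02 (95% interval -1.57 to -0.46, adjusted p = 0.0075 by limma). This call was lost after median-of-ratios scaling, with a difference of -0.79 and an unadjusted p of 0.013 by limma, and on leaving out any 1 sample other than SCP replicate 3 or RSC replicate 1, with unadjusted p-values of 0.010 to 0.016.

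**Figure D2:**
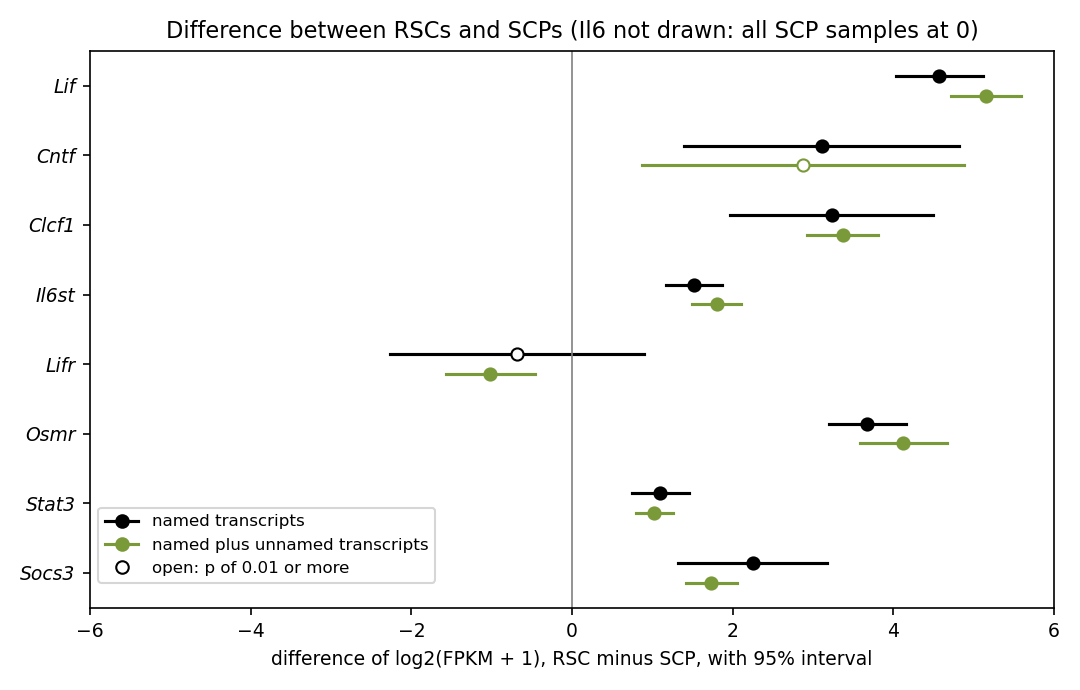
The difference of log2(FPKM + 1) between RSCs and SCPs for 8 of the 9 genes (Il6, listed at 0 in all SCP samples, is not drawn), RSC minus SCP, with its 95% interval from limma, for named transcripts (black) and with unnamed transcripts added (green). Filled points have p under 0.01. Lif, Clcf1, Il6st, Osmr, Stat3 and Socs3 are filled in both, Cntf only in black and Lifr only in green, at -1.02.

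Stat3, the transcription factor that the receptors activate, was 2.16-fold higher in RSCs by the ratio of mean FPKM. It lies on chromosome 10 from 88790401 to 88842257. Its level was 23.5, 30.7 and 33.1 FPKM in SCPs and 66.6, 62.5 and 59.3 FPKM in RSCs. The groups lay well apart, with a difference of 1.10 (SE 0.14, adjusted p = 0.0017 by limma) that was little moved by the unnamed transcripts, at 1.02. These values are of the transcript, and the activity of STAT3 was not measured.

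Socs3, the feedback inhibitor, had the highest level of the 9 genes in RSCs. It lies on chromosome 10 from 106973863 to 106976969. Its level was 29.3, 38.1 and 13.0 FPKM in SCPs and 122, 110 and 130 FPKM in RSCs. SCP replicate 3 was the lowest, and an unnamed transcript held 67.1% of its Socs3 signal. The difference was 2.25 (SE 0.38, adjusted p = 0.0044 by limma), and with unnamed transcripts it was 1.74 (SE 0.13), with SCP values of 29.3, 38.1 and 39.5 FPKM.

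Set in order of the median FPKM of their named transcripts in RSCs, the genes ran Socs3, Il6st, Stat3, Lif, Clcf1, Il6, Cntf, Osmr and Lifr. The ranges of Socs3, Il6st and Stat3 were apart from each other and from the rest, the ranges of neighbours from Lif to Osmr overlapped, and Lifr lay below them all. In SCPs the order was Il6st, Stat3, Socs3, Lifr, Clcf1 and Osmr, followed by Lif, Cntf and Il6 with a median of 0. The ranges of Il6st, Stat3 and Socs3 overlapped in SCPs. Neighbours lay apart below Socs3 and below Clcf1. With unnamed transcripts added, Socs3 and Il6st overlapped in RSCs and Clcf1 lay above Osmr, while in SCPs Socs3 came first, overlapped Il6st, and neighbours lay apart below Stat3, Lifr and Clcf1.

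The make-up of the receptor chains differed in the share of Lifr and Osmr. In SCPs Osmr held 0.277%, 1.13% and 0.270% of the summed FPKM of Il6st, Lifr and Osmr, and in RSCs it held 12.2%, 14.8% and 14.0%. Lifr held 17.9%, 6.31% and 5.81% in SCPs and 2.69%, 2.79% and 0% in RSCs. The groups lay apart for both, with the smallest p that an exact permutation test of 3 against 3 samples can give, 0.10 (two-sided). With unnamed transcripts added, the share of Lifr was 21.2% to 25.5% in SCPs and 2.33% to 4.94% in RSCs. Il6st held most of the sum in both groups, at 81.8% to 93.9% in SCPs and 82.4% to 86.0% in RSCs, and the groups overlapped. With unnamed transcripts its share was 74.2% to 78.6% in SCPs and 79.4% to 84.2% in RSCs, so that the groups lay apart and the direction was reversed (exact permutation p = 0.10, the smallest possible). The summed FPKM of the 3 chains was 31.0 to 36.5 in SCPs and 97.3 to 116 in RSCs.

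**Figure D3:**
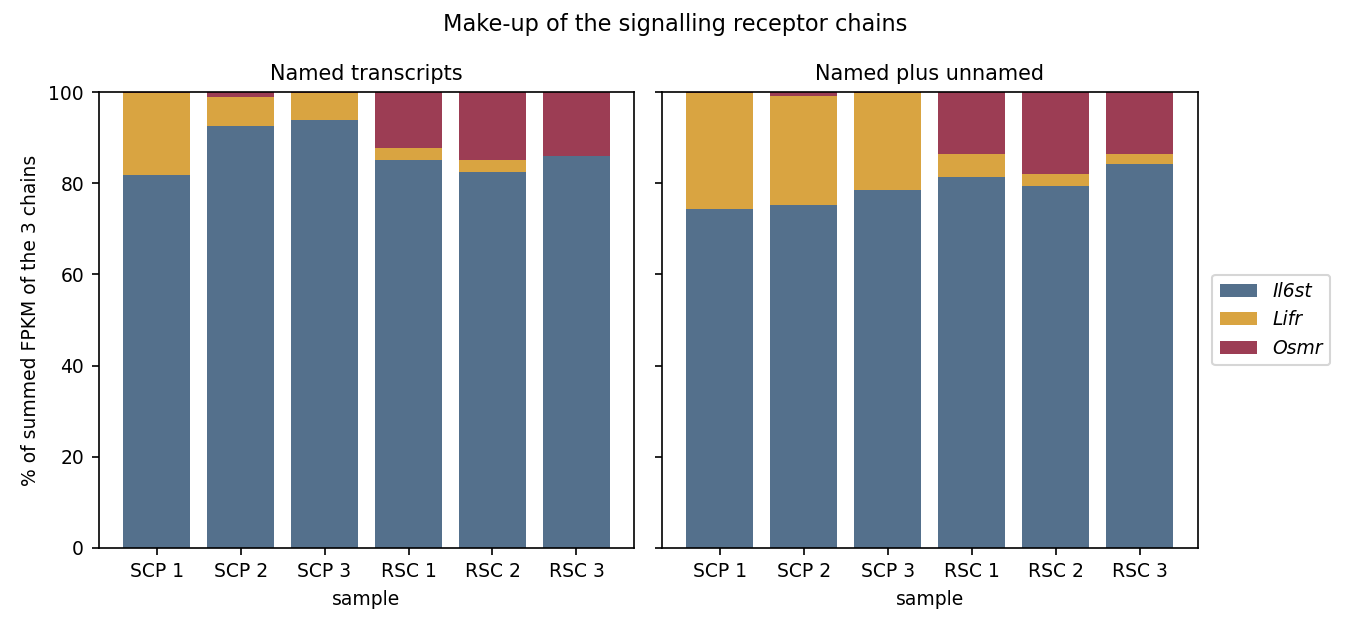
The share of Il6st, Lifr and Osmr in the summed FPKM of the 3 chains in each sample, from named transcripts (left) and with unnamed transcripts added (right), on an axis from 0 to 100%. Osmr is at most 1.13% in an SCP sample and at least 12.2% in an RSC sample, and Lifr is larger in each SCP sample than in any RSC sample.

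The summed FPKM of the 4 ligands was 1.54, 6.20 and 2.50 in SCPs and 124, 66.9 and 77.0 in RSCs. In RSCs all 4 ligands were present, with Lif at 19.9% to 37.4% of the sum, Clcf1 at 22.0% to 47.0%, Il6 at 18.6% to 23.6% and Cntf at 12.3% to 20.5%. In SCPs the shares rest on low FPKM and ranged widely, with Clcf1 at 28.4% to 100% and Cntf at 0% or, in SCP replicate 2, 71.6%. For Cntf and Clcf1 the shares of the groups overlapped, with exact permutation p-values of 1 and 0.20.

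The rest of the pathway was described from 5 lists of 61 genes, of which 49 were tested. Higher in RSCs were 22 genes (44.9%) and higher in SCPs 4 genes (8.16%), with 18.1% and 22.4% over all tested genes, and 23 genes were not called. The median difference of the 49 was 0.95. With the unnamed transcripts added, 51 genes were tested, 28 were higher in RSCs (54.9%) and 6 in SCPs (11.8%). The shares over all tested genes were then 23.2% and 34.2%.

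Among 8 further ligands and ligand partners, 4 were tested and none was higher in SCPs, with 22.4% over all tested genes. Osm, which encodes the ligand of Osmr, was listed at 0.506, 0.0676 and 1.75 FPKM in SCPs and at 0, 4.81 and 3.82 FPKM in RSCs, and was not called. With unnamed transcripts Osm was listed at 8.18, 9.26 and 6.80 FPKM in RSCs, a fitted difference of 2.46 (SE 0.35). Its mean in SCPs was 0.773 FPKM, so Osm entered the test through its RSC values and had to differ.

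The ligand-binding receptor chains went in different directions. Il6r, the chain that binds IL-6, was 0.128, 0.409 and 0.585 FPKM in SCPs and 9.34, 8.65 and 9.32 FPKM in RSCs, a fitted difference of 2.89 (SE 0.21). Like Lif, Il6 and Osmr, it entered the test through its RSC values and had to differ. Cntfr, the chain that binds CNTF, was 17.7, 14.1 and 11.6 FPKM in SCPs and 4.11, 1.95 and 3.86 FPKM in RSCs, a difference of -1.87 (SE 0.28, adjusted p = 0.0029). Il11ra1, the chain that binds interleukin-11, was 33.4, 36.0 and 33.2 FPKM in SCPs and 13.9, 13.8 and 13.6 FPKM in RSCs, a difference of -1.25 (SE 0.09). All 3 kept their direction and call with the unnamed transcripts added.

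Of the Janus kinases and the other STATs, 9 of 10 were tested and none was higher in SCPs, with 22.4% over all tested genes. Jak2, a kinase bound to gp130, was 4.09, 2.89 and 5.15 FPKM in SCPs and 16.8, 39.0 and 24.8 FPKM in RSCs, a difference of 2.41 (SE 0.34, adjusted p = 0.0022 by limma). Jak1 and Stat6 were also higher in RSCs, by 0.59 and 1.47.

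Of 15 SOCS, PIAS and phosphatase genes other than Socs3, 13 were tested, 1 was higher in RSCs, 2 were higher in SCPs and 10 were not called, with 18.1% and 22.4% called over all tested genes and a median difference of 0.07. With unnamed transcripts 3 of 15 were higher in RSCs and 4 in SCPs, with 23.2% and 34.2% over all tested genes. Socs5 was 8.52, 8.49 and 8.39 FPKM in SCPs and 40.1, 38.0 and 38.1 FPKM in RSCs, a difference of 2.07 (SE 0.09). Socs6 was 9.13 to 10.23 FPKM in SCPs and 4.41 to 5.20 FPKM in RSCs, a difference of -0.89 (SE 0.15). Socs7 was listed at 1.66, 1.34 and 6.26 FPKM in SCPs and at 0 in all RSC samples, but with unnamed transcripts it was at 9.63, 9.43 and 9.17 FPKM in RSCs, and the difference was -0.45. With named transcripts alone Socs7 entered the test only through its SCP values. With unnamed transcripts Ptpn6, a phosphatase of blood cells, was at 28.7, 31.2 and 29.9 FPKM in RSCs and 1.86, 4.35 and 3.24 FPKM in SCPs, beside the leukocyte markers given above.

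Genes known to respond to STAT3 were mostly higher in RSCs. Of 23 such genes, 20 were tested, and 15 were higher in RSCs and 0 in SCPs, with 18.1% and 22.4% over all tested genes. Their median difference was 2.23. The largest difference was that of A2m, the acute-phase protease inhibitor alpha-2-macroglobulin, at 0.196, 0.441 and 0.290 FPKM in SCPs and 215, 249 and 222 FPKM in RSCs (7.46, SE 0.13). A2m also entered the test only through its RSC values. Timp1, a secreted inhibitor of metalloproteases, was listed at 0, 15.5 and 14.7 FPKM in SCPs and at 152, 188 and 155 FPKM in RSCs. Its call was lost with a pseudocount of 0.1, with the highest transcript per gene and without any 1 RSC sample, at unadjusted p-values from 0.011 to 0.029 by limma. The other genes called higher in RSCs were the transcription factors Cebpd, Cebpb, Bcl3, Junb, Fos, Myc and Irf1, together with Ier3, Gfap, Icam1, Lcn2, Pim1 and Ccnd1. Fos, Junb and Ier3 are also early response genes, and 6 of the 8 dissociation genes, or all 8 with unnamed transcripts, were higher in RSCs as given above. Vegfa, Bcl2, Hif1a, Bcl2l1 and Mcl1 were not called, with differences from -0.42 to 1.20, and Mcl1 and Bcl2l1 were called higher in RSCs with unnamed transcripts.

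**Figure D4:**
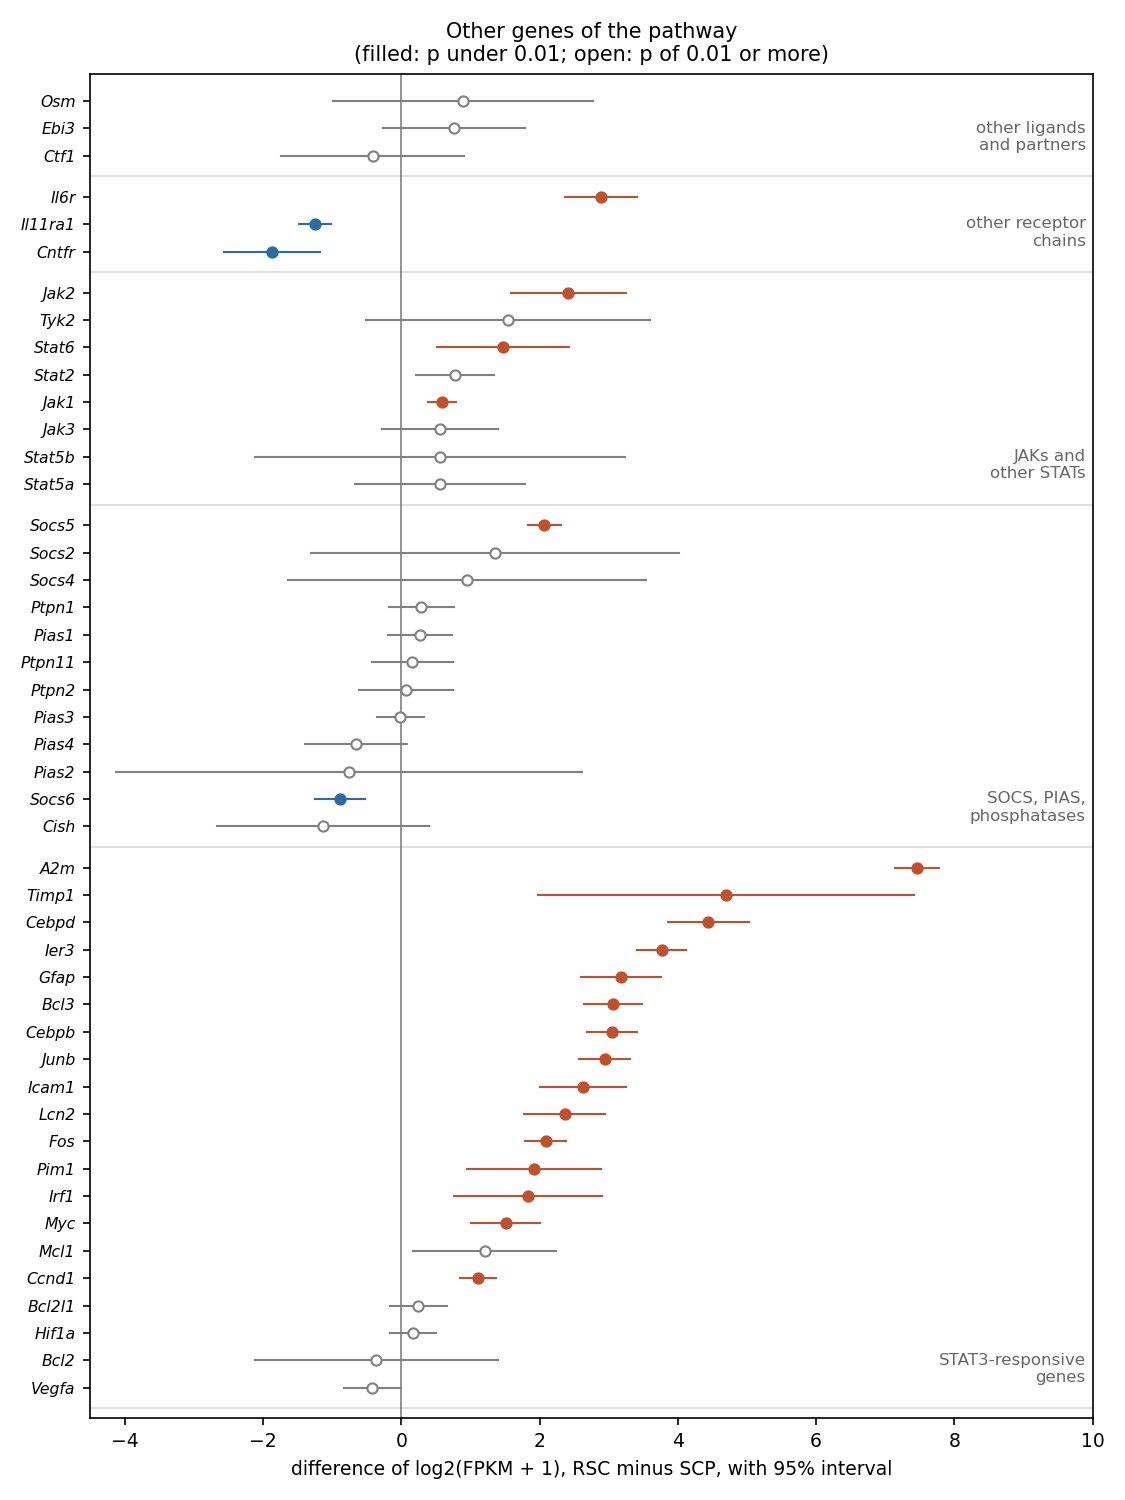
The difference of log2(FPKM + 1), RSC minus SCP, with its 95% interval from limma, for 46 of the 49 tested pathway genes outside the 9, in 5 lists (Socs7, listed at 0 in all RSC samples, is among those not drawn). Filled red points are genes higher in RSCs (20) and filled blue points genes higher in SCPs (Cntfr, Il11ra1 and Socs6), and open points have p of 0.01 or more.

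For each of the 9 genes, the tested gene with the most similar values was sought as the one with the smallest Euclidean distance over the 6 values of log2(FPKM + 1). The closest match was that of Il6 with Selp, the endothelial and platelet adhesion molecule P-selectin, which was also listed at 0 in all SCP samples and was at 25.9, 15.6 and 13.0 FPKM in RSCs, at a distance of 0.13. Osmr lay nearest to Cyb5r2 (0.25), Stat3 to Fam3c (0.29), Lif to Mgst2 (0.34), Clcf1 to Igtp (0.39) and Il6st to Crip2 (0.39). Lifr lay nearest to RGD1564788 (0.65), Cntf to Tapbp (0.83) and Socs3 to Slc44a1 (0.89). These are matches of level and pattern over only 6 samples in 2 groups. Only named transcripts were used. The match of Clcf1 therefore rests on 14.7 and 18.0 FPKM in RSC replicates 2 and 3, which were 39.2 and 39.1 FPKM with unnamed transcripts.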

How the data were processed

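The authors made strand-specific mRNA libraries from 3 SCP and 3 RSC samples and read both ends of each fragment. Per the labels, the submitters' processing notes name FastQC 0.11.2, TopHat2 2.1.0, Cufflinks 2.2.1 and the rn6 genome. The authors deposited 1 Cufflinks table per sample with the FPKM of each transcript and its coverage, a signal whose ratio to FPKM gave the relative depth (0.88 to 1.00 of the highest in SCPs, 0.79 to 0.84 in RSCs). The tables hold no counts, so the absolute depth is unknown and no counting error can be given. Each table lists 61743 named transcripts, and 77 more whose names had turned into dates were left out.

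FPKM of named transcripts were summed by symbol. Unnamed transcripts were added, as an alternative, to the named gene in their Cufflinks locus with which they shared most bases. Since Cufflinks assembled them in each sample separately, they can split or join neighbouring genes. Genes whose mean reached 1 FPKM were compared on log2(FPKM + 1) with limma 3.58.1 in R 4.3.3, with a variance trend but without the replicate number as a term, two-sided, at p under 0.01. The study made 3 separate sets of cells for each group, and whether these came from separate litters or animals is not given in the sources used here, so p-values measure the spread between these sets. Shares were compared with exact permutation tests. Positions are those of the tables on rn6, counted from 1 and spanning all named transcripts of a symbol. Promoter windows are RefSeq's, on GRCr8. The AP-1, CRE and C/EBP motifs were chosen after the windows had been read.

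The genes and lists were chosen with earlier results of these data known. The lists were written by hand. Genes named are the 9, the 2 with the largest called difference in each direction in each list, marker genes and nearest genes. A few genes covered by this rule are left out of the text and figures. Osm, Ptpn6, Jak1, Stat6, Mcl1, Bcl2l1 and the other STAT3-responsive genes were named after their values were seen. The choices varied were the pseudocount (0.1), the filter (none, or a mean of 5 FPKM), the scaling (quantile or median-of-ratios), the variance trend (off), a replicate block, adjusted p, a log2 difference over 2, the highest transcript per gene, unnamed transcripts, 0 values left out and each sample left out. Combinations of the unnamed transcripts with scaling, with the block and with each sample left out were added after seeing the data. The scripts were tested on simulated data. Tables were handled with pandas 2.3.3 in Python 3.11.15 and figures drawn with matplotlib 3.10.9.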

Additional observations from a re-analysis of the deposited data

How the results depend on the processing

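Lif, Il6, Clcf1, Il6st, Osmr, Stat3 and Socs3 kept their direction and their call at p under 0.01 under every alternative run, except that Il6st and Stat3 did not pass a log2 difference over 2, and of these genes Lif, Il6 and Osmr had to differ. Counting unnamed transcripts moved the number of the 9 genes higher in SCPs from 0 to 1 (Lifr). Requiring a log2 difference over 2 moved the number of other pathway genes higher in SCPs from 4 to 0. With unnamed transcripts, the difference in share, RSC minus SCP in percentage points, was 15.6 for Il6, -20.3 for Lifr and 14.6 for Osmr, against 21.0, -8.19 and 13.1, and that of Il6st reversed from -4.95 to 5.66. The difference for Cntf among the ligands ranged from -19.0 to 16.8 on leaving out 1 sample and turned positive only without SCP replicate 2. Same-numbered samples did not deviate together, with correlations of 0.04, -0.005 and 0.03. With 3 samples per group, this gives no sign of pairing by replicate number but cannot exclude it. With the replicate as a block, 7 of the 9 genes were called higher in RSCs, and Cntf had an unadjusted p of 0.012, and Cntf was also not called with a pseudocount of 0.1, at 0.016. By limma, Socs7 lost its call after median-of-ratios scaling, with the block and without SCP replicate 1 or any 1 RSC sample, at unadjusted p-values from 0.011 to 0.026. The cause was not tested. In each library, 294 to 377 genes were listed at 0 although the group reached 5 FPKM elsewhere.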
